A study of Homo sapiens with 6 samples.

Results

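The regions described here are stretches of open chromatin that were listed as peaks in RB-depleted, hormone-deprived LNCaP prostate cancer cells and in neither peak list of the control cells. They were found by joining the peaks of all 3 lists wherever they overlapped by at least 1 bp and keeping the joined regions with a peak of the RB-depleted cells alone. Of 21031 joined regions, 4737 met this rule, which is 22.5% of all regions and 32.6% of the 14527 regions with a peak in the RB-depleted cells. Each of the 4737 regions holds exactly 1 peak. The regions were chosen by the presence or absence of a peak in the lists, so their number, scores and widths are given as a description with no test.

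LNCaP is an established androgen-sensitive human prostate cancer line. ATAC-seq was run on LNCaP cells with a control hairpin (shCON) after 72 hours in CDT, the hormone-deficient condition (shCON CDT). The second group was the control line kept in CDT for 72 hours, with the androgen dihydrotestosterone for 3 hours before harvest (shCON DHT). The last group was cells with a hairpin against RB after 72 hours of CDT (shRB CDT). All 3 groups were therefore hormone-deprived first, RB-depleted cells were not sampled with androgen, and the labels describe the shCON and shRB lines as isogenic. Each group had 2 libraries, pooled into 1 peak list by the authors, so no difference here can be set against the spread between replicates. The labels do not say whether the libraries came from separate cultures or how far RB was reduced, and a list of peaks holds no measure of RB itself.

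RB is a pocket protein that binds E2F transcription factors and recruits enzymes that compact chromatin, which keeps cell cycle genes silent until cyclin-dependent kinases phosphorylate it. In prostate cancer, loss of RB is known from advanced disease that no longer depends on androgen. Open chromatin marks active promoters and enhancers, and a transposase inserts sequencing adapters there more often than in packed nucleosomal DNA. A peak in the RB-depleted list alone is a place where the authors' procedure called such an excess of insertions there and not in the controls. It is not a measurement that the place was closed in the controls. The genome sequence and gene annotation of the build used by the files, hg19, were not used here, so the regions are given by position and no gene, promoter or motif is assigned to them.

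Most regions of shRB CDT alone carried low scores. The deposited score ranks peaks within a list from 413 to a cap of 1000. The median of the 4737 peaks was 526, with quartiles of 458 and 633, whereas the 10051 other peaks of the same list had a median at the cap and a lower quartile of 714. A score under 600 was held by 3234 of the 4737 (68.3%, exact 95% interval 66.9 to 69.6). At the cap stood 98 of them (2.07%, 1.68 to 2.52), against 5094 of the other 10051 (50.7%, 49.7 to 51.7). Intervals here and below cover counting error only and treat neighbouring peaks as independent.

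The share of shRB CDT peaks found in that list alone went down with every step in score. It was 73.3% (71.6 to 75.01) below a score of 500, 46.7% (44.2 to 49.2) from 600 to 699, 18.01% (15.8 to 20.4) from 800 to 899 and 1.89% (1.53 to 2.30) at the cap. In the other lists the share also went down with each step in score. Its levels were lower in each band, but whether a score means the same in every list is not known. The levels are therefore no comparison at equal peak strength. From 600 to 699, 24.1% of shCON CDT peaks (21.8 to 26.5) and 20.9% of shCON DHT peaks (18.8 to 23) were in their own list alone. At the cap these shares were 0.890% (0.621 to 1.24) and 0.517% (0.307 to 0.817). The shRB CDT list is the longest, with 14788 peaks against 12096 in shCON CDT and 12896 in shCON DHT. With all lists cut by score to 12096 peaks the numbers of regions in 1 list alone were 2817 for shRB CDT, 2947 for shCON DHT and 2930 for shCON CDT, so the order by number turned. Regions whose control counterpart fell below the cut count as single-list regions in that setting.

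**Figure D1:**
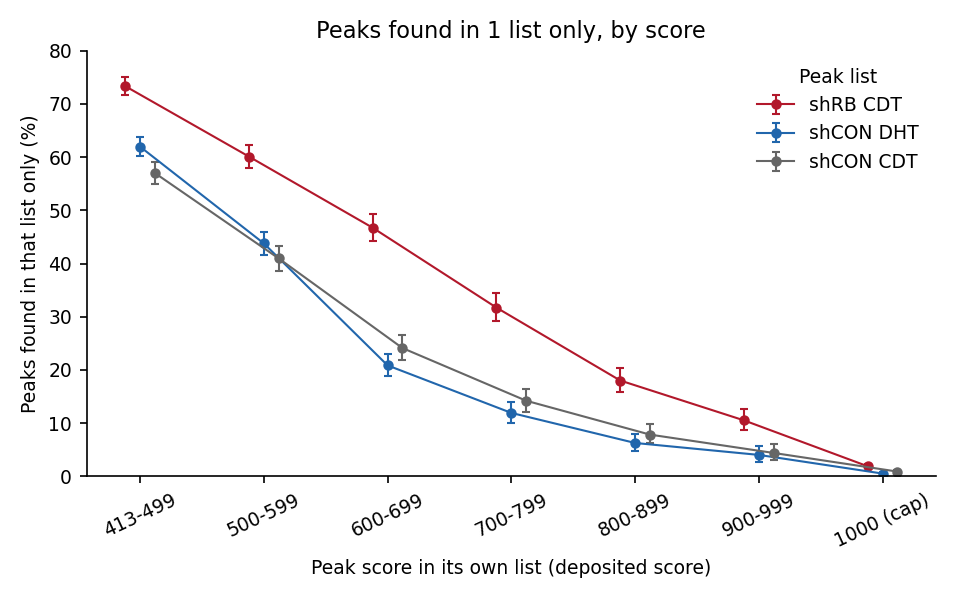
Share of the peaks of each list that no other list holds (vertical axis, percent) in bands of the deposited score (horizontal axis), for shRB CDT, shCON DHT and shCON CDT. Points are shares and bars are exact 95% binomial intervals. In shRB CDT the share goes from 73.3% in the lowest band to 1.89% at the cap, and it lies above the other lists in each band. Whether a score means the same in every list is not known.

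The regions of shRB CDT alone were narrower than the sites open in every condition, and the ratio of the medians was nearer to 1 than in the control lists. Their median width was 700 bp (95% interval 683 to 715), with quartiles of 455 and 1008 bp. The shRB CDT peaks in regions held by all 3 lists had a median of 1160.5 bp, which gives a ratio of 0.603. The same ratio was 0.544 for shCON CDT (587.5 and 1080 bp) and 0.514 for shCON DHT (479 and 932 bp). Together the 4737 peaks covered 3.63 of the 15 Mb in the shRB CDT list, or 24.3% of its bases from 32.03% of its peaks.

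Score and width were only loosely related among these regions, with a Spearman correlation of 0.132 over the 4737 peaks against 0.245 over the 10051 other peaks of the list. These correlations are not like measures, since 50.7% of the other peaks were tied at the score cap against 2.07% of these. Peaks of 1500 bp or more are usually shared, yet 269 of 2079 such peaks in shRB CDT (12.9%, 11.5 to 14.5) were in no other list, against 46 of 1427 in shCON CDT (3.22%, 2.37 to 4.28) and 5 of 548 in shCON DHT (0.912%, 0.297 to 2.12). Over all widths, 32.6%, 22.5% and 26.9% of the regions with a peak of these lists were in that list alone. The median peak widths were 992, 937 and 776 bp, so a fixed width does not mark a like part of each list. Of the 269, 156 had a score under 600, where they made up 48.3% (42.7 to 53.9) of the 323 shRB CDT peaks of that width and score. The widest member, chr20:34893398-34896235, spanned 2838 bp at a score of 501 and lay 51.5 kb from the nearest control peak. The narrowest by the naming rule, chr10:83543512-83543661, spanned 150 bp, the smallest width in any list, at a score of 447.

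The 10 highest-ranked regions all stood at the score cap and were taken in order of width. The first, chr16:52579964-52581892, was 1929 bp wide. It lay 110 kb from the nearest shCON DHT peak and 507 kb from the nearest shCON CDT peak, and no region common to all 3 lists lay within 500 kb. Chromosome 19, which held 9 of the 98 regions at the cap, gave 3 of the 10. These were chr19:52206373-52208072 (1700 bp), chr19:15739101-15740729 (1629 bp) and chr19:12594974-12596473 (1500 bp). They had 5, 4 and 18 common regions within 500 kb, where the median over all regions of shRB CDT alone was 4, and a control peak at 12.2, 43.1 and 9.55 kb. The region chr17:8125542-8127195 (1654 bp) had 10 common regions within 500 kb and its nearest control peak at 24.9 kb.

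The other 5 of the 10 were more varied in setting. The region chr6:131383477-131384912 (1436 bp) was the most isolated of the 10, with 564 kb to the nearest control peak and no common region within 500 kb. The region chr1:57110351-57111808 (1458 bp) lay 65.0 kb from a shCON CDT peak but 722 kb from a shCON DHT peak. By contrast chr5:134733892-134735328 (1437 bp) lay 9.34 kb from a shCON DHT peak and 124 kb from a shCON CDT peak. The remaining regions of the 10 were chr2:118770741-118772359 (1619 bp), 73.2 kb from peaks of both control lists, and chr3:127347623-127349043 (1421 bp), 30.2 kb from a shCON CDT and 37.5 kb from a shCON DHT peak. None of the 10 therefore sat at the edge of a control peak. The choice by width favours this, since the overlap rule mostly leaves narrow peaks there.

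Regions at the cap included short peaks beside control peaks. Of the 98, 20 (20.4%, 12.9 to 29.7) lay within 500 bp of a control peak, and these had a median width of 162 bp (153 to 231). The overlap rule itself favours narrow peaks so close to a control peak. The other 78 had a median width of 960 bp (825 to 1159). The 98 were spread over 21 chromosomes, with 18 on chromosome 1, and 20 of them lay over 50 kb from any control peak. The 18 were 3.0% of the 600 capped shRB CDT peaks on chromosome 1, where the 98 were 1.89% of all 5192.

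Few regions owed their place to the edge of the overlap rule. The median distance from a region of shRB CDT alone to the nearest control peak was 37.0 kb (35.3 to 38.9), with quartiles of 13.8 and 93.6 kb. Within 500 bp lay 222 regions (4.69%, 4.10 to 5.33), between 500 bp and 5 kb 246 (5.19%, 4.58 to 5.86), between 5 and 50 kb 2282 (48.2%, 46.7 to 49.6), between 50 and 500 kb 1905 (40.2%, 38.8 to 41.6) and beyond 500 kb 82 (1.73%, 1.38 to 2.14). Regions of shCON DHT alone lay farther out, with a median of 48.01 kb (45.3 to 51.1) and 5.005% (4.28 to 5.80) beyond 500 kb. Regions of shCON CDT alone had a median of 35.2 kb (33.3 to 37.4). Each class is measured to the joined peaks of the other lists, whose numbers differ.

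**Figure D2:**
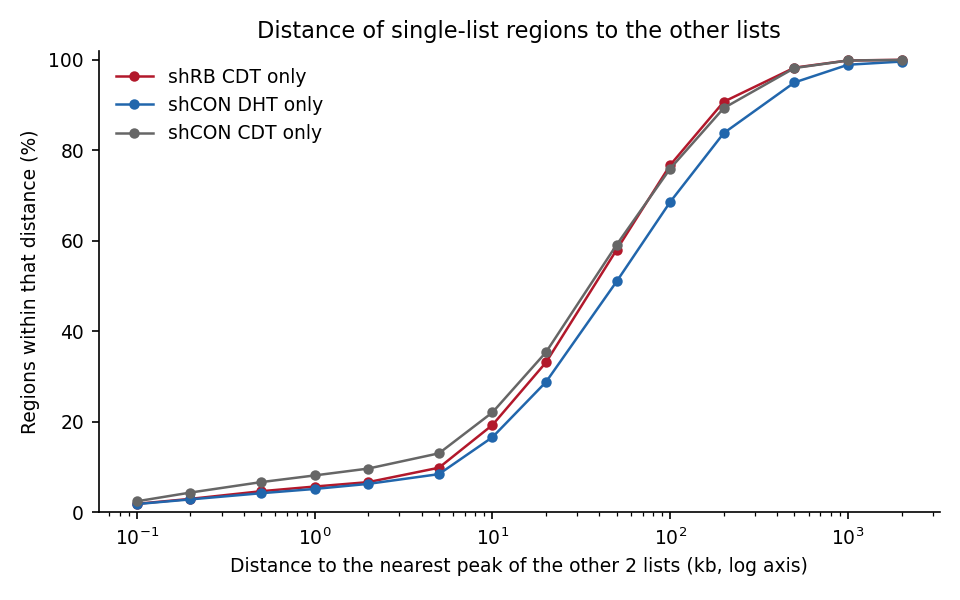
Cumulative share of single-list regions (vertical axis, percent) within a given distance of the nearest peak of the other 2 lists (horizontal axis, kb, log scale). The shRB CDT and shCON CDT curves run close together, at 58.05% and 59.2% within 50 kb, and the shCON DHT curve lies lower at 51.05%.

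The 222 regions beside a control peak were narrower and higher in score at the median than those farther away. The rule favours narrow peaks there, since a wide peak so close to a control peak more readily overlaps it and is left out. The widths are therefore a description only. Their median width was 387.5 bp (307 to 440), against 725 bp (704 to 747) for those at 5 to 50 kb and 702 bp (678 to 730) for those at 50 to 500 kb. Their median score was nonetheless higher, at 615 (572 to 645) against 525 (518 to 531) and 521 (515 to 528). The control classes showed the same pattern. Regions of shCON CDT alone had medians of 349 bp and a score of 580 within 500 bp, and of 606.5 bp and 501 at 5 to 50 kb. Those of shCON DHT alone had 325.5 bp and 541, and 488 bp and 495. For 170 of the 222 (76.6%, 70.4 to 82.0) the neighbouring control peak belonged to a site where shRB CDT had a further peak, and for 99 (44.6%, 37.9 to 51.4) that site was common to all 3 lists. Of all 16294 regions with a control peak, 60.1% held a shRB CDT peak and 43.9% were common to all 3, so the latter share was near this background. Peaks of both control lists lay within 500 bp of 93, of shCON CDT alone 73 and of shCON DHT alone 56.

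Just inside the threshold, chr4:185569444-185569599 touched a shCON CDT peak without sharing a base. The region chr12:81110206-81110539 lay 1 bp from a shCON DHT peak. The regions chr17:47958287-47958721 and chr3:166833801-166834638 each lay 4 bp from a shCON CDT peak, and chr5:162933068-162933244 lay 7 bp from one. Their scores were 428, 428, 434, 445 and 931. Just outside, chr17:38375055-38375260 overlapped a control peak by 1 bp, chr8:11142615-11142795 by 2 bp, chr1:150534347-150535006 by 3 bp, chr19:2426798-2427384 by 4 bp and chr1:195206404-195206882 by 10 bp, with scores of 551, 1000, 414, 760 and 465. In all, 40 regions lay under 50 bp from a control peak, and 21 shRB CDT peaks were left out for an overlap of at most 50 bp.

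At the other extreme were regions in wide stretches without any control peak. The farthest were a pair on chromosome 6, chr6:21588708-21589242 and chr6:21588061-21588583, with midpoints 0.653 kb apart at 1185 and 1184 kb from the nearest control peak. Next came chr16:60391816-60392320 at 1101 kb, chr12:91347829-91349134 at 1079 kb and chr2:162016748-162017627 at 1074 kb. Their scores of 424 to 640 were in the range of most regions of shRB CDT alone, and none had a common region within 500 kb.

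Distances to the control lists were alike at the median, and more of the regions were nearer to shCON CDT in all but 1 setting. By peak edges, 2636 were nearer to a shCON CDT peak and 2091 to a shCON DHT peak, 55.8% (54.3 to 57.2) of those that differed, although shCON CDT makes up 48.4% of the 24992 control peaks. In 8 of the 9 alternative settings the share ran from 54.7% to 58.8%. In the other, with every peak reset to 500 bp around its midpoint, it was 49.8%. The shCON CDT peaks had a median width of 937 bp and the shCON DHT peaks of 776 bp, and the part of width in this result was not tested. The median distance was 52.8 kb to shCON CDT and 52.7 kb to shCON DHT.

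Regions of shRB CDT alone often had another of their kind close by. For 1445 (30.5%, 29.2 to 31.8) the closest region of any class was also in shRB CDT alone, a class that makes up 22.5% of the regions. A common region was closest for 1382 (29.2%, 27.9 to 30.5), a class that makes up 34.0%. The other classes also had their own kind closest more often than its share of the regions. Regions of shCON DHT alone did so in 33.7% of cases (15.7% of the regions) and those of shCON CDT alone in 24.2% (12.6%). A region of shCON DHT alone was closest for 625 (13.2%, 12.2 to 14.2, with 15.7% of the regions) and one of shCON CDT alone for 553 (11.7%, 10.8 to 12.6, with 12.6%).

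The spacing of these neighbours differed between the classes. Within 1 kb, 460 of the 4737 regions (9.71%, 8.88 to 10.6) had another of their class, against 20.4% (19.0 to 21.8) of the regions of shCON DHT alone and 12.0% (10.8 to 13.3) of those of shCON CDT alone. Within 50 kb the shares were 33.8% (32.4 to 35.1), 30.5% (28.9 to 32.1) and 27.6% (25.9 to 29.3). Within 200 kb they were 66.7% (65.4 to 68.1), 52.0% (50.3 to 53.7) and 48.8% (46.9 to 50.7). The longer-range shares moved with the number of regions in a class. In lists cut to 12096 peaks, where the classes were nearly equal in number, the 50 kb shares were 25.3% (23.7 to 26.9), 29.3% (27.7 to 31.0) and 27.9% (26.3 to 29.6), and the 200 kb shares were 52.4%, 50.6% and 51.2%. Within 10 kb the shares in the full lists were 14.7% (13.7 to 15.7), 21.9% (20.5 to 23.4) and 15.1% (13.8 to 16.6), with overlapping intervals for shRB CDT and shCON CDT alone. In lists of equal length they were 11.9% (10.7 to 13.1), 21.1% (19.7 to 22.7) and 15.5% (14.2 to 16.9).

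Shared open chromatin was usually at hand. Within 100 kb of the midpoint, 52.3% (50.9 to 53.7) of the regions of shRB CDT alone had a common region, against 43.5% (41.8 to 45.2) for shCON DHT alone and 49.3% (47.4 to 51.2) for shCON CDT alone. Within 500 kb the shares with any common region were 89.4% (88.5 to 90.3), 81.7% (80.3 to 83.0) and 86.03% (84.6 to 87.3). In the other settings a shRB CDT peak shared by all 3 lists stood in for a common region. By that measure the full lists gave the same 500 kb shares. In lists of equal length these shares were 89.4%, 82.2% and 85.9%, and in the top 50% of each list they drew together at 84.2%, 82.3% and 83.3%.

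The regions were present on all 24 chromosomes, but not in equal proportion. Over the genome, 32.6% (31.8 to 33.4) of the regions with a shRB CDT peak were in that list alone. The highest shares were on chromosome 18 (113 of 289, 39.1%, 33.4 to 45.0), chromosome 20 (163 of 427, 38.2%, 33.5 to 43.0), chromosome 22 (131 of 345, 38.0%, 32.8 to 43.3) and chromosome 3 (369 of 974, 37.9%, 34.8 to 41.0). Chromosome 10 (36.4%, 32.6 to 40.3) and chromosome 1 (577 of 1613, 35.8%, 33.4 to 38.2) also had intervals above the overall share.

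The lowest share was on chromosome Y, with 2 of 23 (8.70%, 1.07 to 28.0), and the next on chromosome X, with 53 of 267 (19.9%, 15.2 to 25.1). Chromosome 4 (137 of 502, 27.3%, 23.4 to 31.4), chromosome 19 (259 of 930, 27.8%, 24.99 to 30.8) and chromosome 11 (218 of 747, 29.2%, 25.9 to 32.6) had intervals below it too. Each is 1 of 24 intervals examined. Shares in the other settings are over shRB CDT peaks instead of regions and are given without intervals. Over peaks, the full lists gave 18.9% on chromosome X and 32.03% on all chromosomes. In lists of equal length, chromosome X remained low at 14.8% and chromosomes 18, 3, 20 and 22 high at 28.3% to 29.02%, against 23.3% overall. In the top 50% of each list chromosome X stood above the overall 20.2%, at 22.3% (33 of 148 peaks), as did chromosome 19 at 22.98%. Chromosome 20 stood below it at 16.9% and chromosome 10 at 19.3%.

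**Figure D3:**
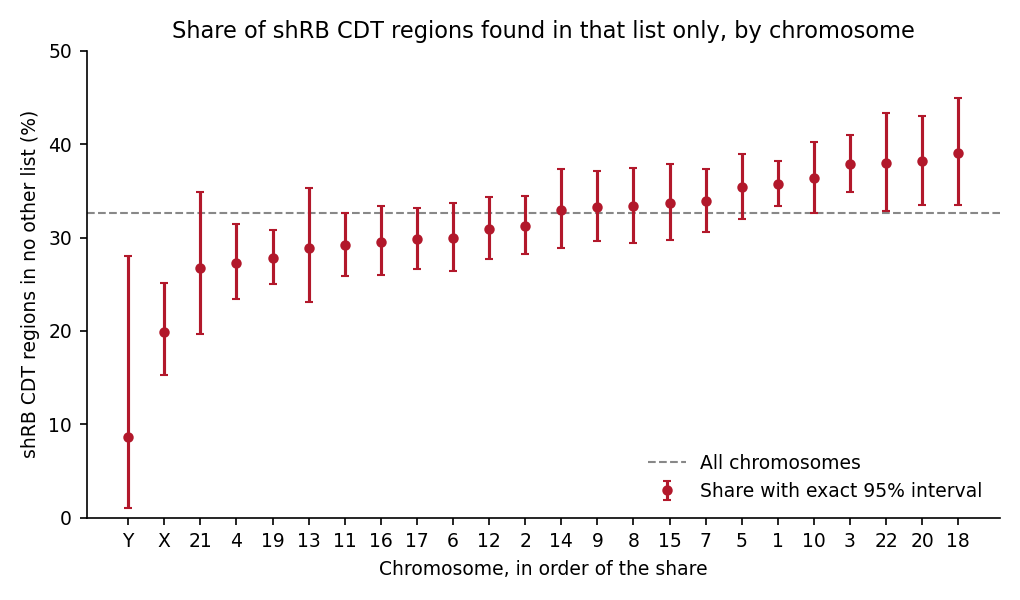
Share of the regions with a shRB CDT peak that no control list holds (vertical axis, percent) for each chromosome (horizontal axis, in order of the share). Points are shares, bars exact 95% binomial intervals, and the dashed line the share over all chromosomes, 32.6%. Chromosomes Y and X are lowest at 8.70% and 19.9%, and chromosome 18 is highest at 39.1%.

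The number of these regions followed gene density, whereas their share of the shRB CDT list did not. Chromosome 19, the richest in genes per Mb, had 4.38 regions of shRB CDT alone per Mb, and chromosome 17 had 2.83. Chromosome 13 had 0.565 per Mb and chromosome X 0.342, with Mb counted to the last listed peak. Over the 22 autosomes the Spearman correlation between regions per Mb and protein-coding genes per Mb was 0.817. Between the share of shRB CDT regions in that list alone and genes per Mb it was -0.06. Gene numbers come from RefSeq on GRCh38 and were used only as counts per chromosome, the points share 1 peak list, and both densities have the same length as denominator. Per 100 protein-coding genes, chromosome 18 had the most of these regions, 41.9, and among the autosomes chromosome 21 had the fewest, 15.9.

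A larger share of these regions than of the common ones lay near chromosome ends. Within 3 Mb of a chromosome's first base or last listed peak lay 619 of 4737 (13.1%, 12.1 to 14.1), against 649 of 7149 common regions (9.08%, 8.42 to 9.77) and 10.5% of all 21031 regions. Regions of shCON CDT alone had a share of 13.2% (11.9 to 14.5), while those of shCON DHT alone had 7.58% (6.70 to 8.54). Within 1 Mb the share was 4.79% (4.20 to 5.44) for shRB CDT alone and 3.76% (3.33 to 4.23) for common regions, with overlapping intervals. It was 6.32% (5.42 to 7.32) for shCON CDT alone and 2.52% (2.01 to 3.11) for shCON DHT alone. Within 10 Mb the shares were 27.4% (26.2 to 28.7) for shRB CDT alone, 26.2% (24.5 to 27.9) for shCON CDT alone, 20.9% (19.6 to 22.4) for shCON DHT alone and 21.3% (20.4 to 22.3) for common regions. The 3 Mb interval of shRB CDT alone thus overlapped that of shCON CDT alone and lay above those of shCON DHT alone and of the common regions. In the top 50% of each list the 3 Mb shares were 10.8% (9.27 to 12.5) for shRB CDT alone, 10.3% (8.09 to 12.8) for shCON CDT alone and 9.87% (7.999 to 12.0) for shCON DHT alone, with overlapping intervals. The share of common regions was not computed in that setting.

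**Figure D4:**
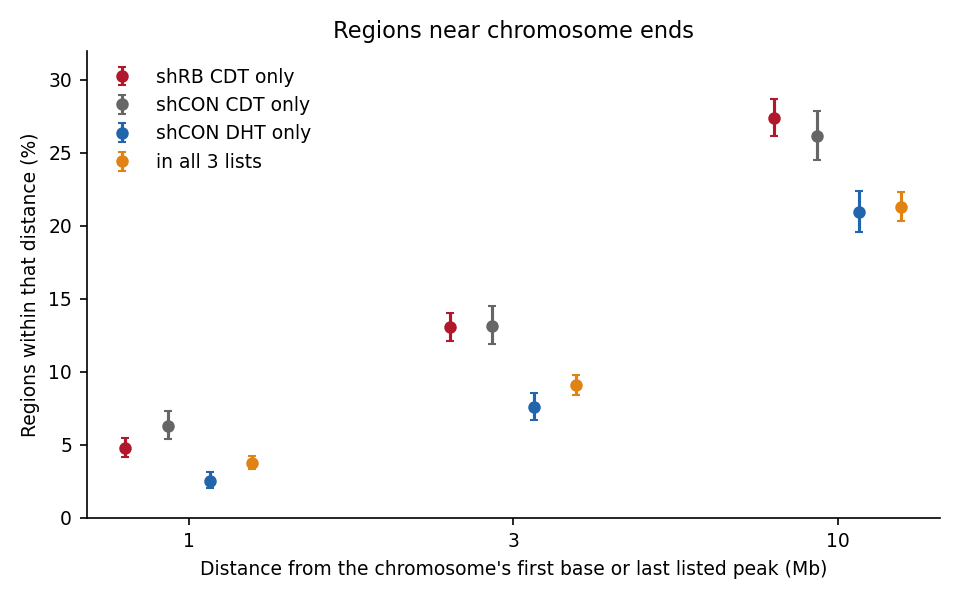
Share of regions (vertical axis, percent) within 1, 3 or 10 Mb of the first base or last listed peak of their chromosome (horizontal axis), for regions in shRB CDT, shCON CDT or shCON DHT alone and regions in all 3 lists. Points are shares and bars exact 95% binomial intervals. At 3 Mb shRB CDT and shCON CDT alone lie at 13.1% and 13.2%, above the common regions at 9.08% and shCON DHT alone at 7.58%.

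Along the chromosomes the number of these regions differed between windows of 1 Mb. The counts were set against neither a chance model nor the other single-list classes. Of 2422 windows of 1 Mb with a shRB CDT region, 1828 held at least 1 region of shRB CDT alone. Among the windows with none, 235 held only 1 shRB CDT region, 138 held 2 and 88 held 3. The 247 windows with 5 or more regions of shRB CDT alone held 1639 of these regions (34.6%, 33.2 to 36.0). In 59 windows, with 79 regions, no peak of any other class was present. Among the 454 windows with at least 10 shRB CDT regions the median share in that list alone was 30.8%, the range ran from 0% to 88.2%, and 44 windows exceeded 50%.

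The fullest window was at 1 to 2 Mb of chromosome 5, where 15 of 17 shRB CDT regions (88.2%) were in no other list and only 1 region was common to all 3. The same window held 5 regions of shCON DHT alone and 3 of shCON CDT alone. Next came 105 to 106 Mb of chromosome 14 with 14 of 24, 62 to 63 Mb of chromosome 20 with 14 of 26, and 3 to 4 Mb and 17 to 18 Mb of chromosome 19 with 13 of 28 and 13 of 29. Tied with the last at 13 were 155 to 156 Mb of chromosome 1 (13 of 30) and 1 to 2 Mb of chromosome 19 (13 of 37). The first 5 windows contained 1, 6, 9, 12 and 12 common regions among 25, 31, 37, 34 and 38 regions of any class. Over the genome, 34.0% of all regions were common ones. High shares were also seen at 131 to 132 Mb of chromosome 12 (11 of 14, 78.6%) and 71 to 72 Mb of chromosome 14 (8 of 11, 72.7%). By contrast, none of the 16 shRB CDT regions at 133 to 134 Mb of chromosome 2 and none of the 12 at 26 to 27 Mb of chromosome 17 was in that list alone. Few regions of shRB CDT alone had high scores in any place, with 440 of all 4737 in the top 50% of the shRB CDT list. In the first 5 windows 1, 3, 2, 3 and 1 were, of 15, 14, 14, 13 and 13.

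**Figure D5:**
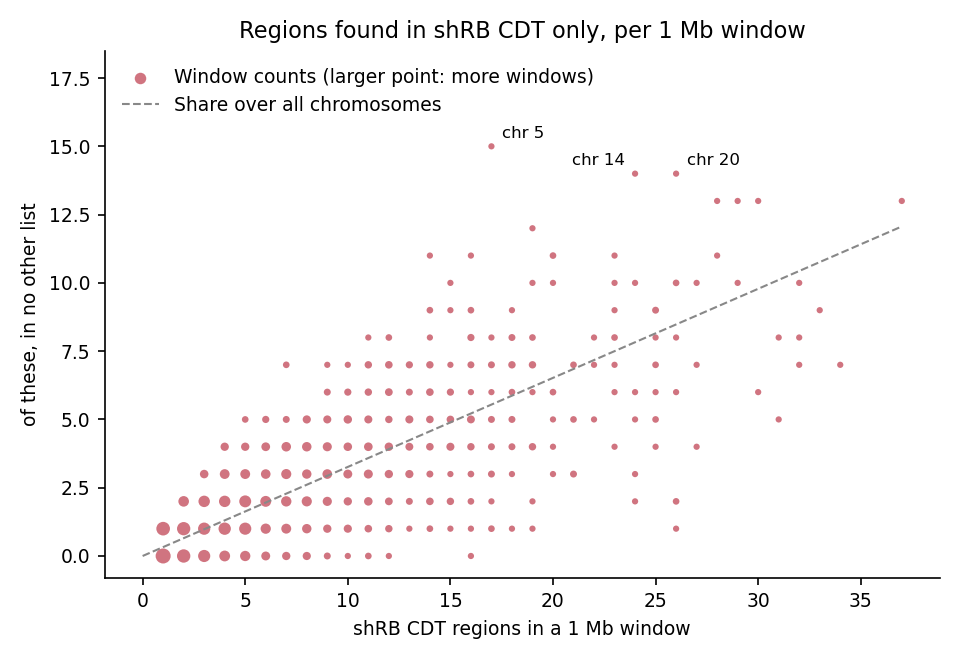
Windows of 1 Mb by the number of regions with a shRB CDT peak (horizontal axis) and how many of these no control list holds (vertical axis). Each point stands for the windows with that pair of counts, with larger points for more windows, and the dashed line gives the share over all chromosomes, 32.6%. The 3 labelled windows hold 15 of 17, 14 of 24 and 14 of 26 regions and lie above the line.

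Uninterrupted runs, in which successive regions were all in shRB CDT alone, reached a length of 7. The longest run was also 7 in shCON DHT alone, and it was 4 in shCON CDT alone. Runs of 3 or more held 850 of the 4737 regions (17.9%, 16.9 to 19.1), and 2503 (52.8%, 51.4 to 54.3) stood singly between regions of other classes. In shCON DHT alone runs of 3 or more held 16.9% (15.6 to 18.2) of the regions and in shCON CDT alone 9.95% (8.84 to 11.2), in classes of fewer regions. A dense run of 7 in shRB CDT alone was chr5:1026580-1295370. Its peaks of 365 to 1106 bp with scores of 449 to 960 were packed into 269 kb. Each lay at least 43.1 kb from a control peak. The run of 7 at chr20:59906406-60641787 spanned 735 kb with scores of 425 to 955. The run of 7 at chr1:189677496-191095771 was thinly spread over 1418 kb, with scores of 435 to 602 and control peaks 72.7 to 721 kb away.

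The runs of 6 showed the same contrast. The run at chr15:78196540-78424389 spanned 228 kb with scores of 482 to 652, and that at chr8:83849024-84781751 spanned 933 kb with scores of 442 to 614 and at least 495 kb to any control peak. No peak in these 5 runs reached the cap, where only 98 of all 4737 regions (2.07%) stood. In lists of equal length 4, 5, 3, 5 and 2 of their regions were left, in the order given. In the top 50% of each list 1, 1, 0, 0 and 0 were left. The same numbers were left in the top 50% of shRB CDT against the full control lists, a setting that kept 440 of all 4737.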

How the data were processed

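ATAC-seq peaks of 6 libraries in 3 groups of 2 were used as 3 lists. Per the labels, both replicates of a group point to the same deposited list. The list names mention an irreproducible discovery rate of 0.1 and filtered, merged and scored peaks. Coordinates are hg19, as the submitters' processing notes state. Which aligner and peak caller were used, and whether reads were shifted for the transposase, is not given in the sources used here. The authors deposited a whole-number score per peak. How it was computed is not stated, and it served only to rank, band and cut peaks within a list. Depth is unknown, and the lists hold no counts, heights or summits.

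Positions are counted from 1. Joined regions, distances between peak edges, neighbour counts between midpoints and runs were computed in Python 3.11.15 (pandas 2.3.3, scipy 1.17.1 and numpy 2.4.6). The code was tested on 3000 simulated regions with planted answers, and 19 of 19 checks were recovered. Shares have exact Clopper-Pearson 95% intervals and medians order-statistic 95% intervals. Pooled lists allow no p-value.

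Named regions were the 10 highest scores (ties by width, then by position), the 5 farthest from control peaks, the 5 just inside and 5 just outside the threshold, the widest and narrowest, and the 5 longest runs (ties by span, shorter first). The 5 fullest 1 Mb windows (of those tied at 13, the ones with the higher share first) and the extreme chromosomes were also named. Windows with the highest and lowest shares were named after their values were seen. Members and comparisons were chosen with earlier results of these data known. Planned promoter, gene list and motif comparisons need hg19 sequence or annotation and were not run. Alternatives changed the overlap rule, list length, peak width, chromosomes and windows.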

Additional observations from a re-analysis of the deposited data

How the results depend on the processing

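With a 50% reciprocal overlap the median width was 717 bp, the median score 538 and the median distance to a control peak 27.02 kb. In that setting 36.2% had another such region within 50 kb and 88.02% a common site within 500 kb. With peaks within 500 bp counted as shared the median distance was 40.06 kb, and within 5 kb 44.1 kb with 31.9% near another. The top 50% of each list gave 1491 regions, with a median width of 982 bp, score of 924 and distance of 63.2 kb, 16.3% near another, 84.2% near a common site and 10.8% within 3 Mb of an end. Lists cut to 12096 peaks gave 2817, with 749 bp, a score of 613, 25.3% near another and 58.8% nearer to shCON CDT. The top 50% of shRB CDT against the full control lists left 440, with 828 bp, a score of 888.5, 27.1 kb and 6.14% near another. Capped peaks alone left 98, with 812 bp, a score of 1000, 14.3 kb, 0% near another, 91.8% near a common site and 15.3% near an end. Cuts of the shRB CDT list remove regions by construction, and cuts of the control lists add regions whose control peak fell below the cut, so that the 1491 and 2817 are not subsets of the 4737. With peaks reset to 500 bp the median distance was 34.9 kb and 49.8% were nearer to shCON CDT. Other windows gave 14.7% (10 kb) and 66.7% (200 kb) near another, and 52.3% (100 kb) and 96.5% (1000 kb) near a common site. On autosomes alone each of these measures stayed within its counting interval. No paired analysis was possible because the replicates of a group were deposited as a single list, and no replicate could be left out. Unknown depth limits the lists, since a weak site may fall under the threshold in 1 of them. Planned promoter and motif settings were not run.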
